A study of Mus musculus with 12 samples.

Results

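In the ouabain-injured mouse auditory nerve, 40 of the 18193 genes measured were lower on average than in controls 7 days after ouabain exposure. At 3 days their group means were at about the control level. In 16 of the 40 the single arrays of the groups overlapped at 7 days. The rule took 1 probe set per gene, the one with the highest mean over the 12 arrays, from those annotated with a single gene symbol. It then used the group means of the deposited log2 expression values, on which a difference of 1 is a doubling. Members were selected on these measured means. A gene was taken when its ouabain mean was at least 0.8 below the control mean at 7 days, when the 2 means differed by no more than 0.3 at 3 days, and when its 7-day control mean was 6 or more. The 3-day, 7-day and between-day differences of the members were therefore fixed by the choice of genes, and they are given below as a description without a test.

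The tissue came from CBA/CaJ mice of both sexes, 8 to 12 weeks old. The right round window niche received about 10 µl of 3 mM ouabain, renewed every 10 min over 60 min, and the unoperated left ear served as the control. Auditory nerves were taken 3 or 7 days later, which gave the groups control 3 days, ouabain 3 days, control 7 days and ouabain 7 days, with 3 arrays in each, and every array held RNA pooled from 2 preparations. By the methods of the study, treated ears whose hearing threshold had shifted little were not used. No sham-operated ear is among these groups, so that ouabain and surgery cannot be told apart. The dissected piece was the modiolus, the bony core of the cochlea that carries the auditory nerve, after removal of the outer shell and lateral wall.

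The auditory nerve is made of the spiral ganglion neurons, their axons and the Schwann and satellite glia that wrap them, and it conveys sound information from the hair cells to the cochlear nucleus. Ouabain blocks the sodium-potassium pump, and at the round window it kills type I spiral ganglion neurons within days while hair cells and most supporting cells remain. A microarray of the modiolus therefore reads neurons, glia, blood cells of the surrounding bone marrow and bordering inner ear tissue together. In tissue pieces of this kind, fewer cells of a type and less RNA per cell cannot be told apart.

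The labelled tissue was checked against marker lists. Of 36 measured genes of spiral ganglion neurons, 28 were lower and 3 higher in ouabain-treated nerves at 3 days, and 29 were lower and 3 higher at 7 days, where a call means a limma p below 0.05 after Benjamini-Hochberg adjustment together with a fold change of more than 1.5. Over all genes the same call for a lower level was made for 8.06% at 3 days and 8.2% at 7 days. Array medians were 6.01 to 6.09, alike by the normalization of RMA. A pair of the 7-day control arrays stood apart in genes of other cell types, and both bear on the members. In 7-day control replicate 1, 17 of 23 measured erythroid genes had their highest level of all 12 arrays, against 9.73% of all genes. The mean level of the 19 erythroid genes that are not members was 9.15 there, against 7.29 to 8.22 in the other 11 arrays. The same array held the highest level of 9 of 16 neutrophil genes and 11 of 20 B cell genes. It did so too for 37 of 76 respiratory chain genes and 15 of 36 spiral ganglion genes. The defining red cell gene Slc4a1, the anion exchanger, read 11.45, 8.10 and 8.01 in the 7-day controls and 9.65, 7.41 and 8.55 in the 7-day ouabain arrays, while the probe set of the globin gene Hba-a1 was at 3.69 to 4.04 in every array. In 7-day control replicate 3, 14 of 24 measured genes of central neurons of the cerebellum and brainstem had their highest level, against 3.73% of all genes. That list was drawn up after the values were seen. The mean level of those 24 genes was 8.21 in that array and lay between 6.45 and 7.12 in the other arrays. The defining gene Gabra6, a receptor subunit of cerebellar granule cells, read 4.24, 6.07 and 11.12 in the 7-day controls and 5.62, 8.84 and 4.86 in the 7-day ouabain arrays. The neuronal genes Neurod6 and Gad2 of the same list read between 2.89 and 4.23 in every array. Genes of the cell cycle were also high in 7-day control replicate 1, where the mean level of the 38 measured genes that are not members was 7.89, against 6.66 and 6.57 in the other 7-day controls. Leaving out both arrays, as done below, leaves replicate 2 alone in the 7-day control group. That array is itself the lowest 7-day control in the members Slc12a5, Dnase1, Slc1a6, Plcxd2, Dpp10, Kcne1, Syt13, Rnf112, Crtam, Ncapd2 and Rhov.

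Of the 12299 genes with a 7-day control mean of 6 or more, 1072 were at least 0.8 lower in ouabain-treated nerves at 7 days, and 1016 of these were also more than 0.3 lower at 3 days. A further 16 were more than 0.3 higher at 3 days, and the 40 members are the remainder. The 7-day difference of the members had a median of -0.96 and ranged from -1.65 to -0.81, while their 3-day difference had a median of -0.13. Over the 12299 genes the medians were 0.06 and -0.01. Genes lay close on both sides of each limit. The members just inside the 7-day limit were Map6 at -0.81 and Pgam2 at -0.82, and the genes just outside it were Ermap at -0.80 and Ntm at -0.79. At the edges of the 3-day window, Tecta at 0.30 and Slc1a6 at -0.30 were inside, and Gabrb2 at 0.31 and Syt1 at -0.32 were outside. At the control floor, Pgam2 with a mean of 6.10 and Rhag with 6.11 were inside, and 1700120C14Rik with 5.97 and Pcdh11x with 5.90 were outside.

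**Figure D1:**
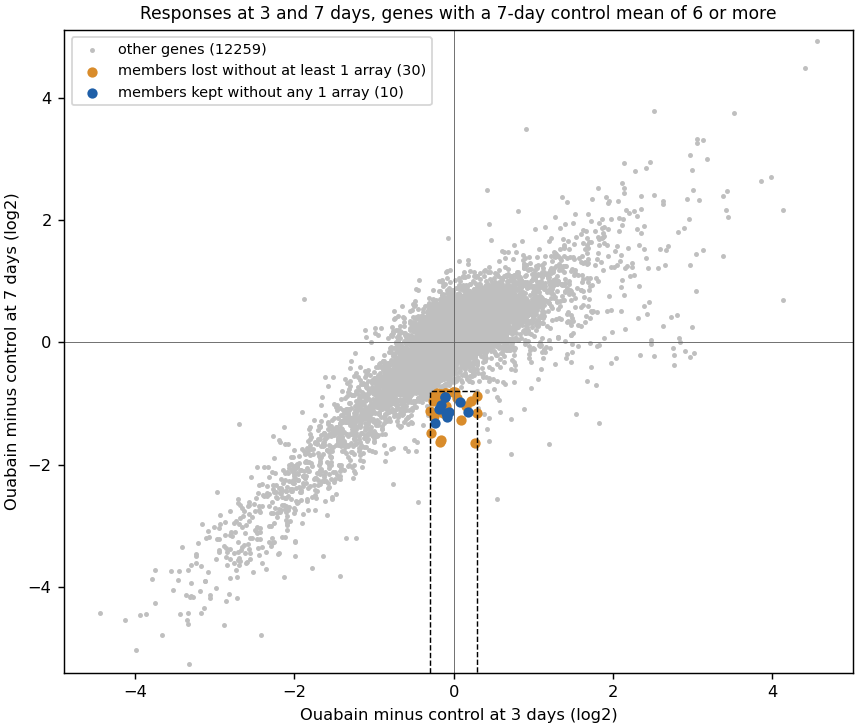
Each point is a gene with a 7-day control mean of 6 or more, with its ouabain minus control difference at 3 days on the x axis and at 7 days on the y axis, both in log2 units. The dashed lines are the limits of the rule, and the 40 members lie below a main band of genes in which the responses of both days run together, with 10 members in blue that met the rule whichever array was left out and 30 in orange that did not.

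Single arrays were read against the mean of the 7-day controls. The median difference of the members from it was -0.950, -1.05 and -0.998 in the 3 ouabain arrays. There 40, 38 and 40 of the 40 members were below the control mean. In 7-day control replicates 1, 2 and 3 themselves 11, 25 and 29 members were below it. At 3 days the medians of the ouabain arrays against their controls were -0.11, -0.16 and -0.11. In 24 members all 3 ouabain arrays were below all 3 controls at 7 days, an order found in 20.6% of all genes. The limma call for a lower level at 7 days was also made for 24 members, beside the 8.2% of all genes given above, and 23 members had both. Since the rule used this contrast, these counts describe the members and support nothing. At 7 days 0 members were called higher, against 7.57% of all genes. At 3 days 0 members were called lower, and 0 were called higher, a call made for 7.51% of all genes. All 3 ouabain arrays were below all 3 controls at 3 days in 4 members, Cpeb1, Hmgb3, Eef1e1 and Cuedc2, against 21.2% of all genes, and above them in Sncg alone, against 22.4%. The difference between the responses of the days was called in 14 members, all toward a lower level at 7 days, where 0.978% of all genes were called. That count was 8 to 16 with 1 array left out, lowest without 3-day control replicate 1, 3-day ouabain replicate 2 or replicate 2 of either 7-day group, and 9 without 3-day control replicate 2 or 3 or 7-day control replicate 1. It was 11 with the replicate number as a block and 2 without 7-day control replicates 1 and 3. In the other direction 0 members and 0.258% of all genes were called.

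Leaving out 1 array at a time divided the members into 3 classes. In the first class, 10 members met the rule without each of the 12 arrays in turn. These were Cpeb1, Tmprss5, Pmel, Hspa12a, Cerk, Emid1, Lmo1, Comtd1, Dync1li1 and Eef1e1. A second class of 14 members had 7-day groups without overlap but lost the rule without at least 1 array. In the remaining 16 the 7-day groups overlapped. The SD of the 7-day controls ranged from 0.04 to 0.22 in the first class and from 0.59 to 2.17 in the overlapping class. Its median over all 40 members was 0.22 against 0.11 over all genes above the control floor.

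**Figure D2:**
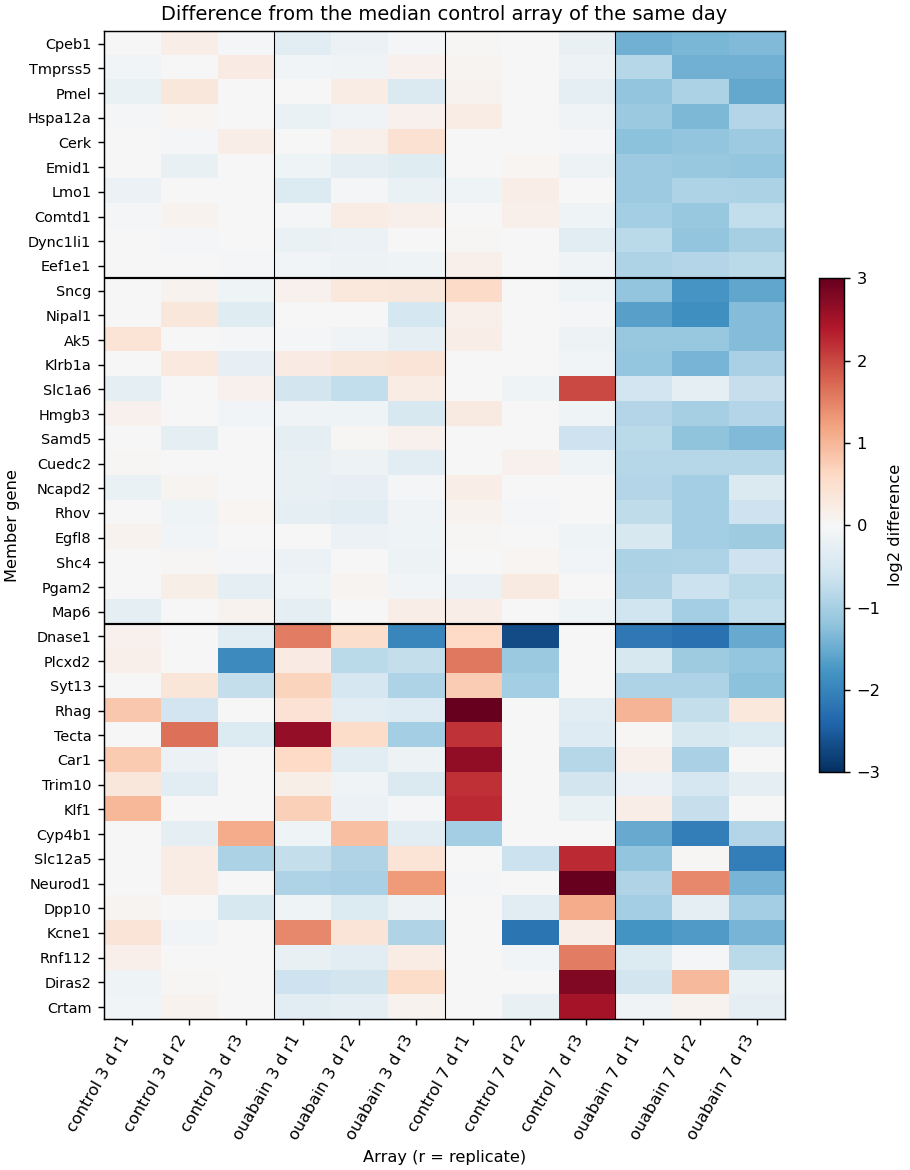
Rows are the 40 members and columns the 12 arrays, and the colour is the log2 difference of an array from the median control array of the same day, blue for lower and red for higher. In the upper block of 10 members all 7-day ouabain arrays are blue and the other arrays are pale, and in the lower block of 16 members the strongest colours lie in single arrays, mostly 7-day control replicate 1 or 3.

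The first class is given here by the known roles of its genes, the membrane, lipid and matrix genes first. Cerk encodes ceramide kinase, which makes ceramide 1-phosphate. It read 10.63, 10.56 and 10.82 in the 3-day controls, 10.65, 10.79 and 11.09 in the 3-day ouabain arrays, 10.49, 10.48 and 10.41 in the 7-day controls, and 9.25, 9.30 and 9.40 in the 7-day ouabain arrays. The lowest 7-day control stood 1.01 above the highest 7-day ouabain array, and the 3-day groups overlapped. The 7-day difference of Cerk was -1.14, a level 2.2-fold lower, and its ouabain mean differed by -1.53 between 3 and 7 days. Tmprss5 encodes spinesin, a transmembrane serine protease, and was taken here in the list of myelinating Schwann cells. It read 7.94, 7.86 and 7.70 in the 7-day controls and 7.01, 6.41 and 6.42 in the 7-day ouabain arrays, against 7.55, 7.54 and 7.76 in the 3-day ouabain arrays. Its groups did not overlap at 7 days, and its 3-day ouabain arrays lay within the range of the 3-day controls or just below it. Emid1 encodes a secreted protein with an EMI domain and collagen-like stretches. It read 8.67, 8.73 and 8.52 in the 7-day controls and 7.58, 7.53 and 7.52 in the 7-day ouabain arrays, with a difference of -1.10. The 3 ouabain arrays of Emid1 lay close together, with an SD of 0.04, and apart from every other array.

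Genes of transcription, RNA and translation followed. Cpeb1 binds the cytoplasmic polyadenylation element and controls the translation of stored messages in oocytes and at synapses. Its levels were 8.84, 9.04 and 8.79 in the 3-day controls and 8.53, 8.67 and 8.78 in the 3-day ouabain arrays. At 7 days they were 9.02, 8.98 and 8.75 in the controls and 7.53, 7.62 and 7.66 in the ouabain arrays. The groups were 1.09 apart at 7 days, with a difference of means of -1.31, the lowest of the first class. Lmo1, a LIM-only cofactor of transcription complexes, read 9.59, 9.92 and 9.71 in the 7-day controls and 8.62, 8.78 and 8.76 in the 7-day ouabain arrays. Eef1e1 encodes a scaffold subunit of the multi-tRNA synthetase complex. It read 10.94, 10.78 and 10.68 in the 7-day controls and 9.86, 9.91 and 9.96 in the 7-day ouabain arrays. For both genes the groups of 7 days did not overlap, and the differences were -1.02 and -0.89.

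The chaperone Hspa12a, a distant member of the Hsp70 family, read 10.13, 9.91 and 9.80 in the 7-day controls and 8.80, 8.57 and 9.03 in the 7-day ouabain arrays. Its chosen probe set can share sequence with more than 1 transcript, as its name ending marks, and its other probe sets are given below. Dync1li1 encodes a light intermediate chain of cytoplasmic dynein, the motor of retrograde axonal transport. It read 10.34, 10.30 and 9.95 in the 7-day controls and 9.48, 9.11 and 9.31 in the 7-day ouabain arrays, with a difference of -0.90. Comtd1, a membrane protein with a catechol-O-methyltransferase domain, read 9.06, 9.21 and 8.93 in the 7-day controls and 8.03, 7.92 and 8.32 in the 7-day ouabain arrays. Each of these 3 genes was below all its controls in every 7-day ouabain array. Pmel forms the fibrils on which melanin is laid down in melanosomes, and melanocytes are present in the normal cochlea. It read 7.78, 7.68 and 7.38 in the 7-day controls and 6.49, 6.72 and 6.14 in the 7-day ouabain arrays, with a difference of -1.16. Of 17 measured melanocyte genes, Pmel among them, 1, Pmel itself, was called lower and 3 were called higher at 7 days, and the 16 others had a mean level of 8.20, 7.43 and 8.12 in the 7-day controls and 7.80, 7.89 and 7.98 in the 7-day ouabain arrays. The 3 were Sox10, Ednrb and Met, which glia or other cells of the nerve also express. The pigment genes Dct, Tyr, Mlana and Slc45a2 were named after their values were seen. Their 7-day differences were -1.83, -1.47, -1.02 and -0.68, and none was called. In each of them 7-day control replicates 1 and 3 were above replicate 2. In Dct and Mlana that replicate 2 lay below every 7-day ouabain array. Tyrp1, Gpr143, Trpm1 and Oca2 of the same list were at 0.27, -0.10, -0.09 and -0.03. The median 7-day difference over the list was -0.09.

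**Figure D3:**
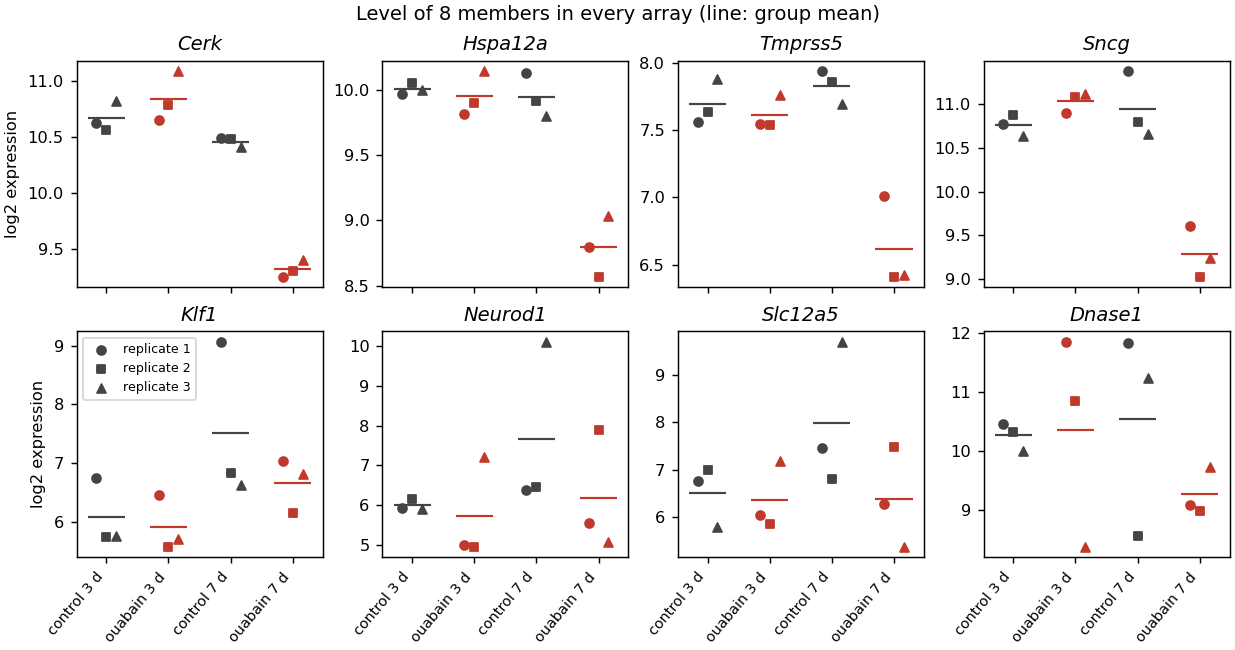
Log2 expression of 8 members in every array, with grey for control and red for ouabain, marker shapes for replicates and lines for group means, on an axis of its own for each gene. In Cerk, Hspa12a, Tmprss5 and Sncg the 7-day ouabain arrays lie below all other arrays, while in Klf1, Neurod1 and Slc12a5 a single 7-day control array lies above all others and in Dnase1 the 7-day controls span 8.55 to 11.84.

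Promoter sequences were looked up for all members, since genes that are lowered together can be compared in their start regions. RefSeq promoters of build GRCm38.p6 were found for 32 members. The promoter set used here held none for Kcne1, Car1, Crtam, Map6, Syt13, Rnf112, Pmel and Ak5. The windows covered 300 bases, 250 before and 50 after the start, and 39 windows of members were set beside all 32851. The 250 bases before the start are printed for 3 genes of the first class, Dync1li1 (chr9:114688581-114688830, + strand), Comtd1 (chr14:21848911-21849160, - strand) and Cerk (chr15:86186142-86186391, - strand). The erythroid member Trim10 (chr17:36869324-36869573, + strand) is shown beside them because its 7-day difference rested on a single control array. These 4 were picked after the matches were seen. Each runs 5′ to 3′ on the strand of its gene. Capitals mark, in the first, GCATGCG or its complement, where both orientations overlap, and GGGCGG or its complement. In the second they mark GCATGCG and AAGGTCA, both read on the other strand, in the third AAGGTCA, and in the last AGATAA, read on the other strand, and CCAAT.
Dync1li1: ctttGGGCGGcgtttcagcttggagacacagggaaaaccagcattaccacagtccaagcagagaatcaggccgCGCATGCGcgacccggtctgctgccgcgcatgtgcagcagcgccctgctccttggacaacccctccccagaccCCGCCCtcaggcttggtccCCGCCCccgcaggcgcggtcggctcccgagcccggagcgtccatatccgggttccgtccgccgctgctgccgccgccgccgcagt
Comtd1: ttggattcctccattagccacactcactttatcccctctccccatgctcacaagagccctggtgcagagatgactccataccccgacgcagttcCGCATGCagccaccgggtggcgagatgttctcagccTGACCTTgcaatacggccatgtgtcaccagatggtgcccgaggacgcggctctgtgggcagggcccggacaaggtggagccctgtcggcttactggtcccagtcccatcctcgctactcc
Cerk: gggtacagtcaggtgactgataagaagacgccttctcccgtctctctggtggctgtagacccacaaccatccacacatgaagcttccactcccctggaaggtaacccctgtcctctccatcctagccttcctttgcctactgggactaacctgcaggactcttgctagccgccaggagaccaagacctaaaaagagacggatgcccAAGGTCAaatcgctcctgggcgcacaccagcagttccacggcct
Trim10: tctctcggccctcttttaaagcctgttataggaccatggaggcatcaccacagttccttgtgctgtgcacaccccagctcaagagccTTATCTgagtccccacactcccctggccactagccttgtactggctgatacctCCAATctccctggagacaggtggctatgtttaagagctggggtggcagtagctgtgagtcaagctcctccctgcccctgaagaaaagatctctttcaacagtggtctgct

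The core of the NRF1 motif, GCATGCG, was in 3.58% of all promoters on either strand and in 7.69% of the member promoters, those of Comtd1, Dync1li1 and Neurod1. The ESRR motif AAGGTCA was in 4.72% of all promoters and also in 7.69% of the member promoters, those of Cerk, Comtd1 and Klrb1a. These shares are 3 promoters each. The GC box GGGCGG was in 35.7% of all promoters and 61.5% of member promoters, and the median GC content was 52.7% and 61.3%, so that base composition moved with it. The erythroid GATA motif AGATAA was in 11.2% of all promoters and 2.56% of member promoters, with Trim10 as its only member. The E-box CACGTG was in 7.15% and 15.4%, the CCAAT box CCAAT in 37.4% and 35.9%, and the SOX motif ACAAAG in 18.7% and 12.8%. With 39 member windows, a single promoter makes 2.56%. Overlapping windows of the same gene can count the same match again. This was so in Dnase1 for the E-box, the CCAAT box and the TATA box, and in Lmo1 for the GC box. The set of all promoters was not limited to genes above the control floor. The TATA box TATAAA was in 13.6% of all promoters and 7.69% of member promoters. Letters of ETS factors, CCGGAAG, were in 8.86% and 5.13%. The CRE core TGACGT was in 7.51% of all promoters and in 0.0% of member promoters. A match is a run of letters in the window and says nothing about binding.

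The 14 members of the second class were below all their controls in every 7-day ouabain array, with a median difference of -0.88. The neuronal member was Sncg, which encodes gamma-synuclein, abundant in peripheral sensory neurons. It had the lowest 7-day difference of all members. Its levels were 10.77, 10.87 and 10.63 in the 3-day controls and 10.90, 11.08 and 11.11 in the 3-day ouabain arrays. At 7 days they were 11.37, 10.79 and 10.66 in the controls and 9.61, 9.03 and 9.24 in the ouabain arrays. The ouabain arrays were thus above all controls at 3 days, by a mean of 0.27, and below all controls at 7 days, by -1.65 or 3.13-fold. Sncg lost the rule without 3-day control replicate 2 or 3-day ouabain replicate 1, through the 3-day window. Its paralog Sncb, chosen after its values were seen, read 9.45, 9.56 and 9.76 in the 3-day controls and 8.29, 8.35 and 7.89 in the 3-day ouabain arrays. Sncb was thus already lower at 3 days, by -1.41 ± 0.16 (SE, limma, adjusted p = 4.1e-05), and was lower at 7 days by -1.69. Sncg was the single gene among the 36 spiral ganglion genes called for the difference between the days.

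Nipal1, of a family of magnesium transporters, read 7.88, 7.73 and 7.68 in the 7-day controls and 6.10, 5.89 and 6.42 in the 7-day ouabain arrays, with a difference of -1.63. Ak5, an adenylate kinase of the nervous system, read 8.83, 8.62 and 8.47 in the controls and 7.49, 7.48 and 7.33 in the ouabain arrays of that day. Both genes lost the rule only without 3-day control replicate 3, and their 7-day groups were 1.26 and 0.98 apart. Klrb1a encodes a lectin-like receptor of natural killer cells and has close paralogs, so its probe set may not be particular to it. It read 7.89, 7.87 and 7.79 in the 7-day controls and 6.72, 6.47 and 6.89 in the 7-day ouabain arrays. Of 11 measured T cell genes 2 were called lower at 3 days and 1 at 7 days. Slc1a6 encodes the glutamate transporter EAAT4 of cerebellar Purkinje cells. Its 7-day controls read 6.27, 6.13 and 8.26 and its ouabain arrays 5.70, 6.01 and 5.57. The groups were 0.12 apart, the gene was not called, and without 7-day control replicates 1 and 3 its difference was -0.37.

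The axonal and dividing-cell genes of this class had smaller differences. Map6 encodes a protein that stabilizes microtubules against cold. It read 8.38, 8.18 and 8.06 in the 7-day controls and 7.58, 7.15 and 7.45 in the 7-day ouabain arrays. Hmgb3, a chromatin protein with HMG boxes, read 9.68, 9.41 and 9.29 in the controls and 8.54, 8.42 and 8.53 in the ouabain arrays. Ncapd2 encodes a subunit of condensin I, which compacts mitotic chromosomes, and read 7.60, 7.39 and 7.40 in the controls and 6.52, 6.38 and 6.96 in the ouabain arrays. All 3 genes were separated at 7 days, and Ncapd2 and Map6 lost the rule without 7-day control replicate 1. Without 7-day control replicates 1 and 3 their differences were -0.77 and -0.79. Pgam2, the muscle phosphoglycerate mutase of glycolysis, read 5.89, 6.34 and 6.06 in the 7-day controls and 5.16, 5.41 and 5.26 in the 7-day ouabain arrays. Its 7-day control mean was 0.61 above its 3-day control mean, and its ouabain means differed by -0.20 between the days. The 23 measured skeletal muscle genes, Pgam2 included, had 4 lower and 0 higher at 7 days. Besides Pgam2 these were Pvalb, Ckmt2 and Casq1, each already called lower at 3 days.

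The other 5 genes of the class are Samd5, Cuedc2, Rhov, Egfl8 and Shc4. Cuedc2 has a ubiquitin-binding CUE domain, and its 7-day ouabain arrays read 10.39, 10.38 and 10.38 against 11.24, 11.36 and 11.11 in the controls. Shc4 is an adaptor of receptor tyrosine kinases and read 9.61, 9.65 and 9.96 against 10.57, 10.62 and 10.49. Samd5, with a SAM domain, read 7.81, 7.42 and 7.30 against 8.64, 8.62 and 8.00. Rhov and Egfl8, the latter with EGF-like domains, had differences of -0.83 and -0.82. All 5 kept their groups apart at 7 days, by 0.19 in Samd5 to 0.72 in Cuedc2. Samd5, Rhov and Egfl8 also lost the rule without 7-day control replicate 1, and without replicates 1 and 3 their differences were -1.11, -0.75 and -0.86.

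In the 16 members whose groups overlapped at 7 days, the median shift from 3 to 7 days was 0.89 in the control mean and 0.01 in the ouabain mean. The erythroid members were Klf1, Rhag, Trim10 and Car1. Klf1 is the transcription factor of red cell genes. It read 6.75, 5.74 and 5.75 in the 3-day controls and 6.46, 5.57 and 5.70 in the 3-day ouabain arrays. At 7 days it read 9.07, 6.83 and 6.63 in the controls and 7.03, 6.15 and 6.81 in the ouabain arrays. Replicate 1 of the 7-day controls stood above every other array, and the other controls lay within the range of the ouabain arrays.

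Rhag, a membrane glycoprotein of the Rh complex, read 8.61, 5.02 and 4.70 in the 7-day controls and 6.03, 4.30 and 5.34 in the 7-day ouabain arrays. Car1, the red cell carbonic anhydrase, read 8.90, 6.25 and 5.39 in the controls and 6.41, 5.27 and 6.25 in the ouabain arrays. Trim10, a tripartite motif protein of erythroid cells whose promoter is printed above, read 8.08, 5.89 and 5.35 in the controls and 5.71, 5.38 and 5.63 in the ouabain arrays. All 4 genes were highest in the array with the high erythroid level, and the SDs of their 7-day controls were 1.36 in Klf1, 1.44 in Trim10, 1.83 in Car1 and 2.17 in Rhag. Without that array the differences were -0.07 in Klf1 and -0.05 in Trim10, and those of Rhag and Car1 turned to 0.37 and 0.16. Without 7-day control replicates 1 and 3 the differences were -0.17 in Klf1, 0.21 in Rhag, -0.31 in Trim10 and -0.27 in Car1. Of the 23 measured erythroid genes, 2 were called lower and 1 higher at 7 days, and none of the 4 members was called. The part of erythroid cells in these differences was not tested.

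A second set of overlapping members was highest in the 7-day control array with the high level of central neuron genes. Neurod1 encodes a transcription factor of neuronal differentiation that cerebellar granule cells keep in the adult. It read 6.39, 6.46 and 10.11 in the 7-day controls and 5.56, 7.90 and 5.07 in the 7-day ouabain arrays. Slc12a5 encodes KCC2, the potassium-chloride cotransporter of central neurons, and read 7.45, 6.80 and 9.69 in the controls and 6.27, 7.48 and 5.37 in the ouabain arrays. Diras2, a small GTPase of the brain, read 7.06, 7.08 and 9.86 in the controls and 6.54, 8.05 and 6.89 in the ouabain arrays. In these 3 genes ouabain replicate 2 was the highest ouabain array and stood above control replicates 1 and 2, and the same array held the highest Gabra6 level of its group. Dpp10, an auxiliary subunit of Kv4 potassium channels, read 5.89, 5.58 and 7.00 in the controls and 4.87, 5.61 and 4.86 in the ouabain arrays. Crtam, an adhesion molecule first described in T cells, read 6.10, 5.88 and 8.60 in the controls and 5.99, 6.21 and 5.84 in the ouabain arrays. Rnf112, a ring finger protein of the brain, read 6.35, 6.27 and 7.88 in the controls and 5.94, 6.31 and 5.53 in the ouabain arrays. Among the 6 genes only Dpp10 was called lower at 7 days, although 1 of its ouabain arrays, at 5.61, lay above 1 control, at 5.58. Without 7-day control replicates 1 and 3 the differences were -0.28 in Neurod1, -0.42 in Slc12a5, 0.07 in Diras2, -0.47 in Dpp10, 0.14 in Crtam and -0.34 in Rnf112. The part of brainstem or cerebellar tissue in these values was not tested.

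The other overlapping members varied among the controls in another way. Dnase1, a secreted endonuclease, read 11.84, 8.55 and 11.24 in the 7-day controls and 9.09, 8.99 and 9.73 in the 7-day ouabain arrays. At 3 days it read 10.46, 10.33 and 10.01 in the controls and 11.86, 10.85 and 8.37 in the ouabain arrays, so that its range within one group was larger than the difference of means of -1.27. Kcne1, the beta subunit of the Kcnq1 potassium channel of marginal and dark cells, read 6.89, 4.70 and 7.08 in the 7-day controls and 5.09, 5.20 and 5.50 in the 7-day ouabain arrays. Dct, a melanocyte enzyme that is no member and was chosen after its values were seen, was likewise lowest in replicate 2 of the 7-day controls, with 10.78, 5.40 and 10.35. Dct read 10.61, 9.64 and 5.34 in the 3-day ouabain arrays, where Kcne1 read 7.14, 6.08 and 4.79. Without 7-day control replicates 1 and 3 the 7-day differences of Dnase1 and Kcne1 were 0.72 and 0.56. Of 20 measured lateral wall genes, 0 were called lower and 1 higher at 7 days, and the mean level of the 19 that are not members was 9.96, 9.82 and 10.12 in the 7-day controls.

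Tecta encodes alpha-tectorin, the matrix protein of the tectorial membrane. Its levels were 6.16, 7.82 and 5.75 in the 3-day controls, 8.80, 6.71 and 5.13 in the 3-day ouabain arrays, 7.69, 5.52 and 5.14 in the 7-day controls, and 5.56, 5.04 and 5.11 in the 7-day ouabain arrays. Tecta lost the rule without any of 6 arrays, the highest number among the members. Of 23 measured supporting cell genes, Tecta included, 4 were called lower and 5 higher at 7 days. Plcxd2, with a phospholipase C X domain, read 10.61, 7.91 and 9.03 in the 7-day controls and 8.56, 7.96 and 7.88 in the ouabain arrays. Syt13, a synaptotagmin, read 7.82, 6.02 and 7.05 in the controls and 6.13, 6.12 and 5.83 in the ouabain arrays. Cyp4b1, a cytochrome P450, read 5.72, 6.75 and 6.73 in the controls and 5.21, 4.65 and 5.85 in the ouabain arrays. In Plcxd2 and Syt13 a single control lay within the ouabain range, and without 7-day control replicates 1 and 3 their differences were 0.23 and 0.01. Cyp4b1 alone among the 16 overlapping members met the rule without those arrays, with a difference of -1.51.

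The difference between the responses of a member on both days is made of the change of its ouabain mean and the change of its control mean between the days, which come from different animals. The 7-day difference holds the 3-day difference as well. The control mean was higher at 7 than at 3 days in 32 of 40 members, or 80%, against 46.7% of the 12299 genes above the control floor, a share that the floor and the rule both favour. The median shift was 0.27 in the controls and -0.59 in the ouabain arrays. The ouabain shift was the larger in 26 members and the control shift in 14. The largest control shifts were 1.90 in Rhag, 1.65 in Neurod1, 1.59 in Car1 and 1.47 in Slc12a5. The largest ouabain shifts downwards were -1.73 in Sncg, -1.64 in Tecta, -1.53 in Cerk and -1.29 in Nipal1. In the first class the median control shift was 0.10 and the median ouabain shift -0.88.

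**Figure D4:**
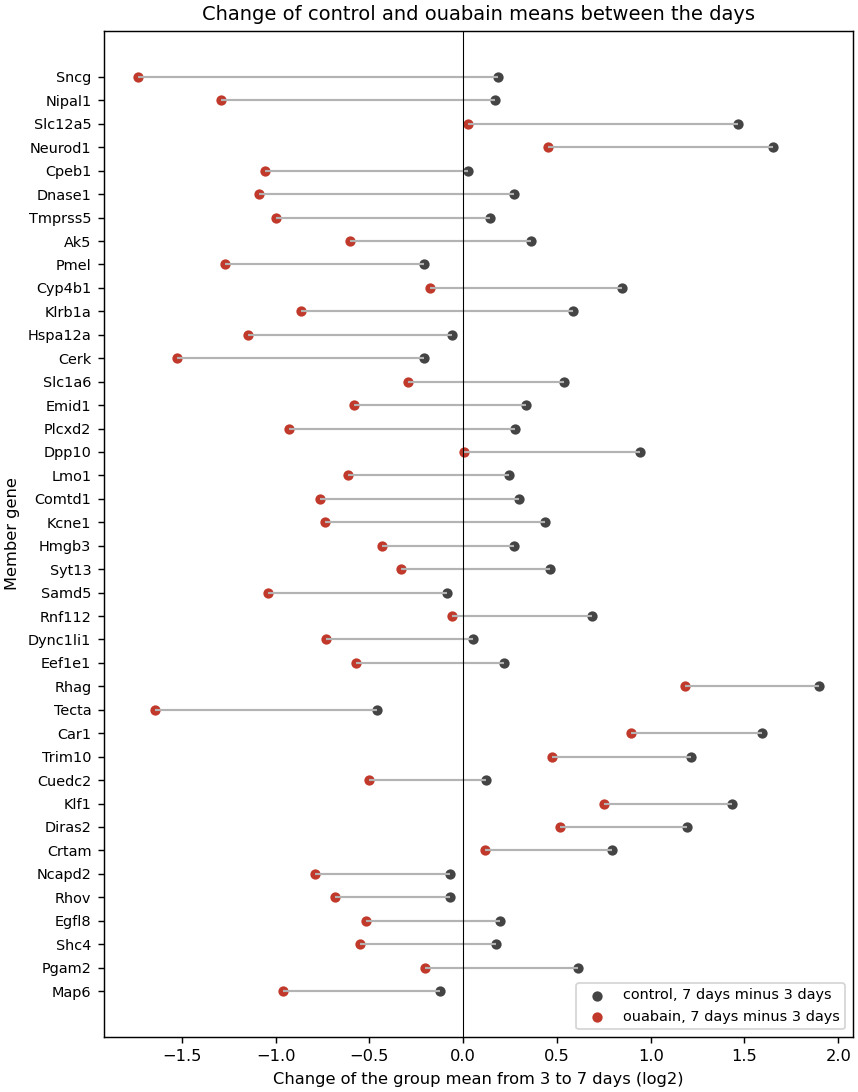
For each member, the grey point is the control mean at 7 days minus that at 3 days and the red point the same for ouabain, in log2 units. Genes run from the lowest 7-day difference at the top to the least low at the bottom. In Sncg, Cerk, Hspa12a and Tecta the red point lies far to the left of 0, whereas in Rhag, Neurod1, Car1 and Klf1 both points lie to the right of 0 and the grey one lies farther right.

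Without 1 array, between 31 and 60 genes met the rule. The loss of members was largest without 7-day control replicate 1, where 14 left and 5 other genes entered. Without 7-day control replicate 3, 8 members left and 27 other genes entered. Without both, 25 genes met the rule, of which 21 were members. The 4 that entered were 1700120C14Rik, Bean1, Ntm and Ucp3, named after their values were seen. The 21 members comprised the first class, 10 of the second class and Cyp4b1. Removal of 3-day ouabain replicate 1 and of 7-day ouabain replicate 2 cost 10 members each.

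**Figure D5:**
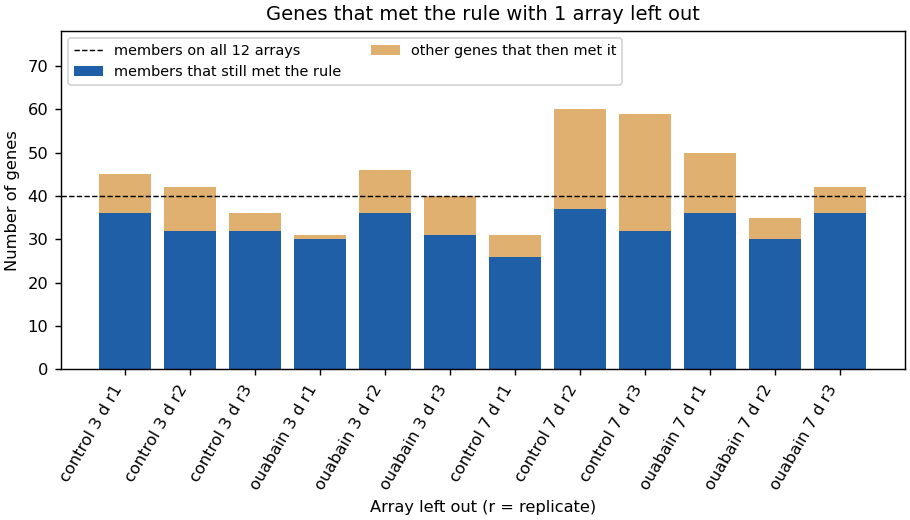
Bars give the number of genes that met the rule when the array named on the x axis was left out, with members in blue and other genes in tan, and the dashed line marks the 40 members. The blue part is lowest, at 26, without 7-day control replicate 1, and the tan part is highest, at 27, without 7-day control replicate 3.

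The rule was also applied to 8 arrays, without the 4 arrays of 1 replicate number, and the genes it then found were read in those 4 arrays. Without replicate 1 the rule found 34 genes, whose median 7-day difference was -1.05 in the 8 arrays and -0.95 in the arrays left out, with 33 below 0. Without replicate 2 it found 60 genes with medians of -1.09 and -0.22, of which 36 were below 0. Without replicate 3 it found 50 genes with medians of -1.06 and -0.45, of which 33 were below 0. Over all genes above the control floor, 45%, 44.2% and 42.9% were below 0 in the same arrays. The difference was thus nearly as large in the first reading and clearly smaller in the others. The 3-day difference of the same genes in the arrays left out had a median of -0.21 without replicate 1, -0.39 without replicate 2 and 0.06 without replicate 3. Within the 3-day window were 20 of the 34, 18 of the 60 and 29 of the 50 genes. In replicate 2 the 3-day median was thus lower than the 7-day median.

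In 25 members the array has 1 probe set for the gene, and 15 members have more, with 18 further probe sets. Of these 18, 17 had a 7-day difference below 0. Only 8 had a 7-day control mean of 6 or more, and 5 of them were at least 0.8 lower. Of these 5, 1 was also inside the 3-day window, a probe set of Hspa12a. Slc12a5 had a second probe set with a difference of -0.21 beside -1.60, at a low control mean of 4.21. Hspa12a had 3 others at -0.87, -0.48 and -0.03, the first with a 3-day difference of 0.13. Samd5 had a second probe set at 0.00 beside -0.91. In Map6 the second probe set was lower at 7 days, at -1.49, and higher at 3 days, at 0.42, so that it lies outside the 3-day window. Neurod1 and Nipal1 had second probe sets at -1.52 and -1.30 at 7 days, and these were already at -0.48 and -0.41 at 3 days. The second probe set of Kcne1 was at -1.39 at 7 days and at 0.70 at 3 days.

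Several members belong to lists whose calls at both days are set beside them here. Of 28 measured genes of axonal transport and microtubules, Dync1li1 and Map6 among them, 12 were called lower at 3 days and 18 at 7 days, 0 were called higher, and 0 were called for the difference between the days. Of 29 genes of myelinating Schwann cells, 6 were lower and 6 higher at 3 days, and 14 were lower and 3 higher at 7 days. For the difference between the days 7 of them were called, Tmprss5 among these, but Tmprss5 was not called without 7-day control replicate 1. Of 40 cell cycle genes, 33 were called higher at 3 days against 0 on day 7, and 5 were lower at 7 days, the members Hmgb3 and Ncapd2 among them. These 2 members differed from the list at 3 days, with differences of -0.26 and -0.13 against a list median of 1.52. The 7-day counts moved with 7-day control replicate 1, the array high in cell cycle genes. Without it 5 genes of the list were called higher and 4 lower at 7 days, and 15 were called for the difference between the days, against 5 with all arrays and 14 without 7-day control replicate 3. The part of these arrays in these counts was not tested. The respiratory chain held no member, and of its 76 measured genes 3 were lower at 3 days (list median -0.22) and 20 at 7 days (list median -0.45). Of these 76, 0 were called for the difference between the days, and 37 had their highest level in 7-day control replicate 1.

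The genes most like the mean profile of the members over the 12 arrays, each gene scaled to the same mean and spread, were Mrps11, Mrpl42, Timm8a1, Mrps22 and Hdhd2, with Pearson's r of 0.98, 0.98, 0.97, 0.96 and 0.95. These r describe the arrays that the rule used. Mrps11 and Mrps22 encode proteins of the small subunit and Mrpl42 a further protein of the mitochondrial ribosome, and Timm8a1 encodes a carrier of the mitochondrial intermembrane space. Mrps11 read 9.56, 9.40 and 9.45 in the 7-day controls and 8.89, 8.86 and 8.87 in the 7-day ouabain arrays. The 7-day differences of the 5 genes were -0.60, -0.49, -0.76, -0.74 and -0.75, short of the limit of -0.8, and their 3-day differences lay between -0.27 and -0.09. In each of the 5, every 3-day ouabain array was already below every 3-day control, an order found in 21.2% of all genes. In Timm8a1 the 7-day controls read 10.46, 10.33 and 10.34 and the ouabain arrays 9.68, 9.57 and 9.59, and these groups did not overlap.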

How the data were processed

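Per the methods and labels, RNA of the auditory nerve (50 ng in the paper, 100 ng in the labels) was hybridised to Affymetrix mouse arrays. The deposited values are log2 expression values that the authors made with the Affymetrix Expression Console by RMA (version not given in the sources used here), and RMA compresses differences at low signal. They were used without further normalization. Of the probe sets, 64 controls were left out and 45037 were tested. Gene symbols came from the platform annotation (34945 probe sets with 1 symbol, 932 with several, 9160 with none), and all 40 members matched RefSeq by Entrez ID.

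Groups were fitted together with limma 3.58.1 in R 4.3.3, and tables were made in Python 3.11.15 with pandas 2.3.3. Calls needed a p below 0.05, adjusted by Benjamini-Hochberg over every probe set, and a fold change above 1.5, while the difference between the days was called by the adjusted p alone. The fit was tested on simulated data with independent noise and no outlying array, which says nothing about the arrays that stood apart here. The members and gene lists were chosen with earlier results of these data known, and the list of central neurons after values were seen. Named are the 15 lowest members, those in lists, the largest shifts, threshold neighbours, probe sets that differ most and the closest profiles, and others were chosen after their values were seen. The number of arrays limits the precision, and since nothing says which animals a pool came from, p-values measure the spread between these arrays. An exact permutation test of 3 against 3 arrays cannot go below 0.1 and was not run. Alternatives were other scalings, limits, probe set rules, tests and arrays left out. Arrays of postnatal nerves and of neurospheres were not used here.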

Additional observations from a re-analysis of the deposited data

Results flagged for a closer look

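Among the lists that hold members, 3 had genes outside the members whose responses at 7 and 3 days differed. The call was the limma test of the difference itself, made toward a lower level for 0.978% of all genes. Lists without members had such genes too. The lists of macrophages, citric acid cycle, cholesterol and fatty acid synthesis, proteasome and chaperones, and central neurons each had 1 called lower. In endothelium 1 was called higher, against 0.258% of all genes. Of the myelinating Schwann cell genes 6 differed in this way, Gjb1, Gjc3, Dhh, Ugt8a, Ncmap and Pou3f1. Gjb1, the connexin of Schwann cell myelin, differed from control by 0.44 at 3 days and by -1.24 at 7 days, a change of -1.68 ± 0.13 (SE, limma, adjusted p = 7.8e-05). Gjc3, another glial connexin, went from 0.72 to -1.25, and Dhh, a signal of Schwann cells to the nerve sheath, from 0.42 to -0.80. All 3 were above control at 3 days, which kept them out of the members. Of the 6, Ncmap alone was not called without 7-day control replicate 1 (adjusted p = 0.075), and Gjb1 and Gjc3 alone were called without replicates 1 and 3, which leaves 1 array in that group.

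Of the melanocyte genes 1 did so, Tyrp1, an enzyme of melanin synthesis. It read 7.84, 7.92 and 7.88 in the 3-day ouabain arrays and 4.52 to 5.24 in the other arrays, with differences of 3.22 at 3 days and 0.27 at 7 days (limma, adjusted p of the change = 7.8e-05). The member Pmel, of the same cell type, differed by -0.10 at 3 days.

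Of the cell cycle genes 5 did so, Ccne2, Kif11, Cenpf, Pbk and Gmnn. Kif11, a spindle motor, differed by 2.59 at 3 days and by -0.38 at 7 days, and Ccne2, a cyclin of entry into S phase, by 0.88 and -1.09. The 7-day values moved with 7-day control replicate 1, in which cell cycle genes were high. Without it the 7-day difference was 0.10 in Kif11, 0.56 in Cenpf, 1.17 in Pbk, -0.63 in Gmnn and -0.94 in Ccne2, and all 5 were still called for the change between the days (adjusted p between 0.00022 and 0.045, limma). Without replicates 1 and 3, Kif11, Ccne2 and Pbk were called and Cenpf and Gmnn were not. Tyrp1 was called in both settings.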

How the results depend on the processing

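With 3 arrays a group, the SD of single members limits what a difference of 0.8 can show. Against 40 genes that met the rule, a 7-day limit of -0.6 gave 95, a limit of -1 gave 18, and 1 array left out gave 31 to 60. Without 7-day control replicates 1 and 3, chosen after the data were seen, 25 met it, with replicate 2 alone in that group and assumed by limma to vary like the other groups. The median 7-day difference of the members was -0.90 with the mean over probe sets, -1.17 to -0.95 with 1 array left out and -0.86 without both arrays. Their median 3-day difference was -0.087 with the 75th percentile subtracted and -0.13 to -0.058 with 1 array left out. The control mean was higher at 7 days in 72 of the 95, 15 of the 18, 21 of the 27 genes found with a floor of 7, and 27 to 33 with 1 array left out. The 7-day difference held out lay between -0.95 and -0.22. Of the 24 members called lower at 7 days, 12 remained at a fold change above 2, and 23 to 28 members were called with 1 array left out.

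Genes called lower numbered 2629 at 7 days and 2678 at 3 days without a fold threshold, and 832 and 789 above a fold of 2. Genes called for the difference between the days, 225, became 363 with low probe sets left out, 373 with a trend and robust moderation, 103 to 375 with 1 array left out and 42 without both arrays.

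The replicate numbers were not taken as pairs, since nothing says which animals a pool came from. Same-number arrays correlated in their deviations by 0.37, 0.09 and 0.18 at 3 days and by 0.38, 0.21 and 0.03 at 7 days. Arrays of different numbers correlated by -0.39 to 0.22, mostly below 0. Whether the numbers mark pairs was not settled by these values. With the replicate number as a block, 23 members were called lower at 7 days and 11 for the difference between the days, 156 genes were called for the difference between the days, and 1503 and 1478 genes were called lower at 7 and 3 days.

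With 1 array left out, the 7-day difference ranged from -1.59 to 0.37 in Rhag and from -1.60 to 0.16 in Car1, each above 0 without 7-day control replicate 1. It ranged from -1.32 to 0.082 in Diras2 and from -1.34 to 0.026 in Crtam, each above 0 without 7-day control replicate 3. Without both it turned in Dnase1 (0.72), Plcxd2 (0.23), Kcne1 (0.56), Syt13 (0.0079), Rhag (0.21), Diras2 (0.073) and Crtam (0.14). The cause was not tested. A second quantile normalization left every member within its spread.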
